A study of Mus musculus with 2 samples.

Results

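The cells described here are Lgr5- and Smoc2-positive epithelial cells of the mouse colon, taken from single-cell RNA sequencing of acute colitis. Cell barcodes were kept with at least 200 detected genes and under 20% of their UMIs (unique molecular identifiers, each counting 1 captured RNA molecule) from mitochondrial genes. A barcode then counted as a stem cell with at least 10 UMIs of the epithelial gene Epcam, at most 2 of the leukocyte gene Ptprc, at least 2 of Lgr5 and Smoc2 together, under 20 of the goblet cell gene Muc2 and under 10 of the colonocyte gene Aqp8. The members were thus chosen by their own UMIs of these 6 genes, whose levels in them are no finding. By this rule 140 of 14848 barcodes were stem cells, 83 of 5721 in library 1 and 57 of 9127 in library 2. The 7-week-old SPF mice had been given 3% dextran sulfate sodium (DSS), which damages the colonic epithelium, for 6 days, and cells of the mid-colon were taken, with no sort named in the labels. Both libraries belong to this 1 group; no untreated mice are part of the data used here, and no strain, sex or genotype is given, so nothing below is an effect of DSS. The labels call the libraries repeats without saying that they come from different mice. The p-values measure only how far differences between gates varied between these 2 libraries, with a spread shared over gates and genes. That spread may be technical.

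Stem cells at the base of the colonic crypt divide throughout life and renew the whole epithelium. Their daughters divide further as transit-amplifying cells and then turn into absorptive colonocytes, goblet cells, enteroendocrine cells or tuft cells while moving up the crypt. Wnt and R-spondin signals from the surrounding mesenchyme hold stem cells at the base: Lgr5 is an R-spondin receptor, Smoc2 a secreted calcium-binding protein, and both are switched on by Wnt signalling. Notch signalling keeps stem cells out of the secretory fate, and BMP signalling, strongest towards the surface, pushes cells to differentiate.

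The stem cells made up 4.76% of the epithelial barcodes (at least 10 Epcam and at most 2 Ptprc UMIs) in library 1 (83 of 1744, exact Clopper-Pearson 95% interval 3.81 to 5.87) and 4.70% in library 2 (57 of 1214, 3.58 to 6.04). Lgr5 and Smoc2 summed to a median of 5 UMIs per member and reached 44. Of the 140 members, 76 held both transcripts, 62 Smoc2 alone and 2 Lgr5 alone, so the gate rests more on Smoc2 than on Lgr5. At the edge of the rule 25 members held 2 UMIs of the pair, 22 held 3, and 67 barcodes outside it held 1. The members were deeply sequenced, with a median of 30687 and 36677 UMIs per barcode and 3020537 and 2210108 UMIs in all, of 72423760 and 92143965 in the 2 libraries.

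The label was checked against Ascl2 and Axin2, which the rule did not use. Ascl2, a transcription factor of the Wnt-driven stem cell programme, had UMIs in 41.0% of members in library 1 and 29.8% in library 2, against 1.92% and 6.98% of dividing epithelial cells without Lgr5 or Smoc2. After thinning each barcode to 5000 UMIs these shares were 13.3% (95% interval 6.81 to 22.5) and 5.26% (1.10 to 14.6) of the members against 0.962% and 0.948% of the dividing cells, and 0% and 0.0966% of leukocyte barcodes (at least 3 Ptprc and no Epcam UMIs), which should lack it and whose median depth was 6313 and 5954 UMIs before thinning. Axin2 was found in 22.9% (14.4 to 33.4) and 19.3% (10.0 to 31.9) of thinned members, in 1.92% and 2.37% of thinned dividing cells and in 3.23% and 2.37% of thinned leukocytes; unthinned, it was in 66.3% and 59.6% of members. The dividing cells were thus at the leukocyte level for Axin2 and the members above it, whereas the Ascl2 intervals of members and dividing cells overlapped in library 2 (up to 3.38% in the latter). Thinning left out no member, 0 and 4 dividing cells, and 474 and 1220 leukocytes, which held under 5000 UMIs. These intervals cover counting error only.

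One feature of library 2 bears on the results. In that library 4 members held 118 to 421 UMIs of 6 fibroblast markers (Dcn, Lum, Col1a1, Col1a2, Col3a1, Pdgfra), while the other 136 members held at most 5. All 4 had no Lgr5 and 6 to 44 Smoc2 UMIs, and all were among the 9 members (2 and 7 by library) whose Scrublet doublet scores were the highest of their library at a rate of 0.8% per 1000 barcodes. With them the 6 markers summed to 486 CPM (UMIs scaled to the same total in each library) in library 2, without them to 23.5, against 8.94 in library 1. Values that these 4 barcodes move by over 1.5 times are given without them as well. Markers of other cell types were summed over all members. The 6 neutrophil markers came to 297 and 467 CPM (56588 and 45489 in the leukocyte barcodes), the 6 markers each of T and NK cells and of B and plasma cells to 16.2 to 28.5 CPM (Ms4a1 and Mzb1 among those at 0), of mononuclear phagocytes to 25.5 and 88.2, of endothelium to 2.65 and 5.43 (Kdr at 0), and of tuft cells to 1.32 and 0.905 (Dclk1, Pou2f3 and Il25 at 0). The 6 enteroendocrine markers summed to 20.5 and 4.98 CPM, and the 6 goblet markers to 185 and 214, below the 275 and 260 of the leukocyte barcodes. Colonocyte markers stood at 570 and 267 CPM against 330 and 263 in leukocytes and 2899 and 2675 in the dividing epithelial cells. These levels are per UMI, and the leukocyte barcodes were shallower than the members (medians of 6313 and 5954 UMIs against 30687 and 36677). The epithelial markers, which include the gate gene Epcam, summed to 7500 and 7523 CPM. The goblet markers include Muc2 and the colonocyte markers Aqp8, which the rule capped in the members. The goblet and colonocyte sums of the members are thus partly set by the gate. No member shared its barcode with a member of the other library, although 16 barcodes passed the filters in both. The members' summed counts differed between the libraries beyond counting error (chi-square 69166 on 12421 degrees of freedom). The 2 sums come from different barcodes, and cells differ among themselves, so this value cannot tell whether the libraries are duplicates. The few shared barcodes, and not this test, show that the 2 are not 1 library sequenced again.

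Most members carried transcripts of division. At least 2 UMIs of Mki67 and Top2a, genes of the dividing cell, were found in 64 of 83 members of library 1 (77.1%, 66.6 to 85.6) and 46 of 57 of library 2 (80.7%, 68.1 to 89.95; 86.8% without the 4 fibroblast-marker barcodes). Among the other epithelial barcodes the share was 12.9% and 31.5%, at lower depth (medians of 18254 and 24112 UMIs over all epithelial barcodes). Only 9 and 6 members had no UMI of either gene, under the 20 barcodes per library set for a sum, so dividing and resting stem cells could not be compared.

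The members were therefore compared first with dividing cells that held no Lgr5 or Smoc2 UMI but met the other limits (104 and 215 barcodes, median depth 35473.5 and 36130 UMIs), the gate closest to them in depth and cycling. Non-dividing progenitors (at least 2 UMIs of the crypt chloride channel Cftr, no Mki67 or Top2a; 64 and 41 barcodes) and colonocytes (at least 10 UMIs of the water channel Aqp8; 787 and 362) served as further references. UMIs were summed per gate and library, and the 8 sums were fitted with edgeR's quasi-likelihood test with library as a block. Benjamini-Hochberg adjustment ran over 12157 genes. Counts and shares of called genes are over the 12148 left without the genes that cut the gates. Levels are CPM scaled by TMM, edgeR's correction for composition, given for library 1 and then library 2. Differences are log2 fold changes ± standard error, with n = 2 libraries. This error was calculated back from the test, as the fold change divided by the square root of its F value. It rests on a spread estimated over all gates and genes, not on the 2 libraries of a gene alone. A gene counts as higher or lower at an adjusted p under 0.05. The genes that cut the gates (Lgr5, Smoc2, Epcam, Ptprc, Muc2, Aqp8, Mki67, Top2a, Cftr) stayed in the fit, but no test of them is reported.

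Against the dividing cells, 1408 genes (11.6%) were higher in the stem cells and 2143 (17.6%) lower (29.2% together). Of these 3551 called genes, 99.6% differed in the same direction in both libraries. Without TMM, scaled by library size alone, the median of all genes moved from 0.01 to 0.13 on the log2 scale and the split turned from 39.7% to 53.7% higher (1968 higher, 1699 lower), so a small difference has a direction only relative to that median. The shares of 11.6% and 17.6% are the background against which the gene lists below are read.

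Wnt target and feedback genes were the clearest group above that background. Of 20 on the list 11 had enough counts to test. Among these 9 were higher, none lower, and the list's median was 1.76 (0.01 over all genes). The median covers the tested genes only. Ascl2 had its UMIs mostly in the stem sums, so its having a test was not independent of its being high there. The same holds for Fzd2, Mex3a and Agr3 in the lists below. Etv4, also below, had too few counts in the other gates to be tested without the stem sums. Other genes near the count filter may share this limit. Axin2, a scaffold of the β-catenin destruction complex that Wnt signalling itself induces (chr11:108920349-108950783, GRCm38), was at 45.5 and 38.7 CPM in the stem sums and 3.95 and 6.57 in the dividing sums. Both stem libraries lay far above both others, with a log2 fold change of 3.01 ± 0.35 (adjusted p = 0.000141). Ascl2 (chr7:142966829-142969264) was at 17.3 and 16.0 CPM against 0.415 and 1.55, or 3.91 ± 0.48 (adjusted p = 0.000448); it had no UMI in the progenitor or colonocyte sums, and DESeq2 did not call it (adjusted p = 0.103), though it did among the dividing members alone (1.63e-06). Ephb3, a receptor that positions cells along the crypt, was at 39.7 and 36.9 against 5.19 and 6.96 CPM (2.58 ± 0.31, adjusted p = 0.000164). Its relative Ephb2 was at 55.9 and 44.7 against 43.2 and 41.6 and not called (adjusted p = 0.244).

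Cd44, a hyaluronan receptor and marker of the crypt base, was at 121 and 124 CPM against 24.9 and 49.9 (1.76 ± 0.20, adjusted p = 0.000107). The growth regulator Myc was at 54.3 and 48.6 against 9.55 and 20.3 (1.79 ± 0.25), the transcription factor Sox9 at 272 and 189 against 99.7 and 76.8 (1.36 ± 0.16) and Cdca7 at 143 and 86.2 against 26.6 and 37.7 (1.77 ± 0.24). All 3 were called. Rnf43 and Znrf3, membrane ubiquitin ligases that clear Wnt receptors and so limit the signal, were higher by 1.22 ± 0.22 and 1.20 ± 0.30; DESeq2 did not call Znrf3 (adjusted p = 0.0772). Cyclin D1 (Ccnd1), often listed as a Wnt target, stood at 179 and 181 CPM against 235 and 211 and was not called. Among the untested members, Tnfrsf19 had 13 UMIs in the stem cells (9 without the 4 fibroblast-marker barcodes) and none in the dividing cells. Against a floor of 3 counts over the gate this is 11-fold higher (7.72-fold without the 4). Such folds, also where given below as at least, leave out the counting error of the gate that held UMIs. Sp5 had 6 UMIs against 2, a ratio of 7.61 (1.36 to 77.1). Wif1 had 0 against 6 and Prox1 1 against 9, a ratio of 0.282 (0.00643 to 2.03) for Prox1. The counts of Wif1 and Prox1 are too few to give a direction.

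The receptors and transducers of the Wnt pathway did not move as a group: of 19 tested, 3 were higher, 5 lower and 11 not called, with a median of -0.03 (0.09 with library-size scaling, against 0.13 over all genes). The frizzled receptors Fzd2 (11.5 and 7.09 against 0.208 and 1.45 CPM), Fzd3 (14.5 and 9.58 against 4.15 and 4.64) and Fzd7 (16.2 and 6.03 against 1.45 and 3.19) were higher in the stem cells, all from low counts. Fzd5 was lower, at 31.0 and 28.7 against 67.5 and 47.6 CPM (-0.93 ± 0.15, adjusted p = 0.00118); with each barcode thinned to 5000 UMIs the difference was 0.02. Lgr4, the R-spondin receptor found throughout the crypt, was also lower, at 76.7 and 68.1 against 133 and 86.4 (-0.57 ± 0.15). β-catenin (Ctnnb1) stood at 207 and 192 against 293 and 318 (-0.61 ± 0.16) and its DNA-binding partner Tcf7l2 at 133 and 101 against 254 and 263 (-1.14 ± 0.16). Both were lower in the stem cells than in any of the 3 reference gates, and Tcf7l2 reached 1317 and 1176 CPM in colonocytes (-3.41 ± 0.17 for stem over colonocyte). The co-receptors Lrp5 and Lrp6 and the destruction complex genes Apc, Axin1 and Gsk3b were not called against the dividing cells.

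Of the crypt stem cell list, 22 of 31 genes were tested (1 more, Cftr, cut a gate): 16 were higher, 3 lower and 3 not called, with a median of 1.41. Slc12a2, the basolateral sodium-potassium-chloride cotransporter of secreting crypt cells, had UMIs in 98.8% and 91.2% of members after thinning to 5000 UMIs, against 34.6% and 52.1% of dividing cells and 4.12% and 4.44% of leukocytes. It summed to 840.3 and 709 CPM against 163 and 231 (1.93 ± 0.28, adjusted p = 0.000484) and was lower still in progenitors (100.1 and 41.8) and colonocytes (16.2 and 10.1). Per member it ranged from 2.64 to 38.3 UMIs per 10000 in library 1, with a median of 10.1, and from 0 to 20.2 in library 2, with a median of 9.34. The dividing cells had medians of 0.965 and 2.33, and the 2 ranges overlapped.

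Hopx, a homeodomain protein described in slow-cycling intestinal stem cells, was at 71.0 and 51.4 CPM against 14.5 and 12.2 (2.18 ± 0.17, adjusted p = 1.88e-05). Mex3a, an RNA-binding protein of a slowly dividing Lgr5-positive subset in the mouse, was at 20.8 and 18.8 against 1.25 and 2.32 (3.37 ± 0.36, adjusted p = 7.74e-05). Lrig1, a brake on EGF receptors, was at 72.9 and 48.6 against 24.9 and 20.7 (1.38 ± 0.18). Genes reported as slow-cycling markers were thus high in a gate in which most barcodes carried division transcripts, while Bmi1, another such gene, was at 10.4 and 18.1 against 15 and 19.5 and not called. Cd24a (417 and 334 against 65.4 and 98.0), the cell cycle kinase Cdk6 (86.9 and 69.9 against 11.4 and 25.7), the potassium channel Kcnq1 (63.0 and 46.8 against 21.2 and 18.4) and the water channel Aqp1 (50.4 and 39.4 against 7.68 and 7.63) were higher as well. Agr3, a secretory chaperone relative, was at 9.04 and 15.2 against 0.623 and 0.580 CPM (4.39 ± 0.54). The 3 lower genes of the list were the chloride channel regulator Clca4a (20 and 11.3 against 107 and 57.1, -2.35 ± 0.31), the water channel Aqp4 (204 and 126 against 877 and 398, -1.89 ± 0.20) and Prom1, or CD133 (108 and 98.2 against 164 and 214, -0.86 ± 0.16). In these samples the summed levels of all 3 were higher in every reference gate than in the stem cells. For Aqp4 the share of thinned barcodes with a UMI differed from this in colonocytes. It was 66.3% and 35.1% of members against 27.0% and 26.5% of colonocytes, so a smaller share of barcodes carried the colonocyte sums. The dividing cells (85.6% and 67.8%) and progenitors (90.6% and 80.5%) lay above the members. The RNA-binding protein Msi1 had 8 UMIs in the members and none in the dividing cells, 6.76-fold higher against the floor of 3 counts.

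**Figure D1:**
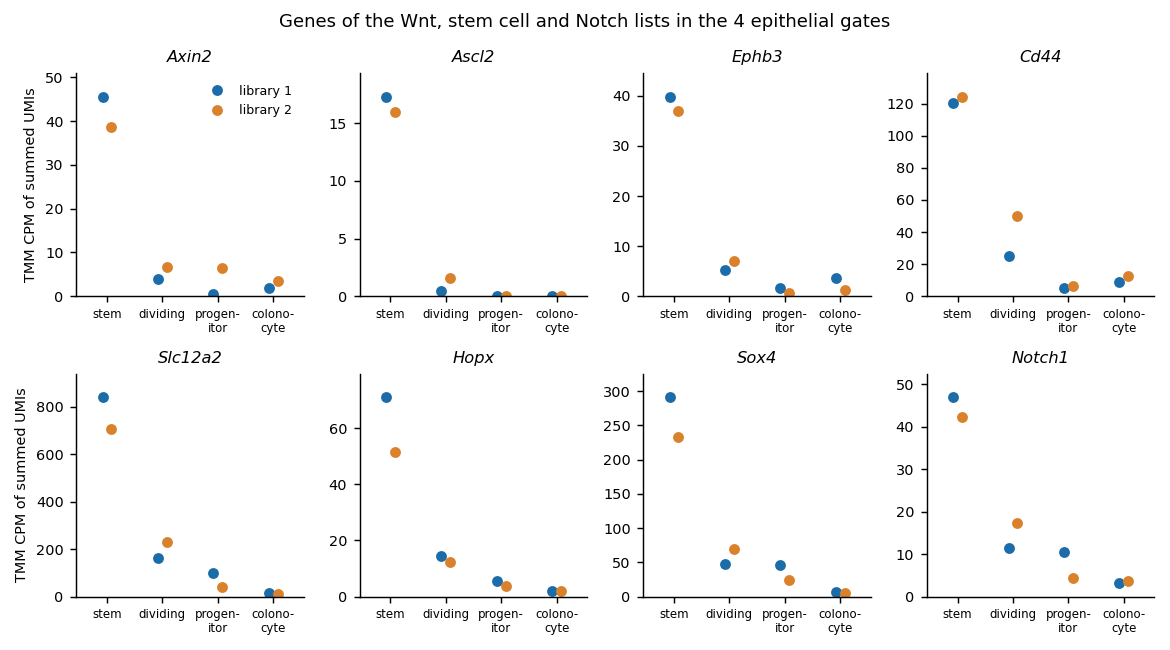
Levels of 8 genes in TMM-scaled CPM of summed UMIs (y axis) for the stem gate and 3 reference gates (x axis: stem, dividing non-stem, Cftr-positive progenitor, Aqp8-high colonocyte), with 1 point per library. For each of the 8 genes both stem sums lie above all 6 others, as for Axin2 at 45.5 and 38.7 CPM.

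Notch genes leaned upward, with 6 of 14 tested higher, 2 lower and a median of 0.86. The receptor Notch1 was at 46.9 and 42.2 CPM against 11.4 and 17.3 (1.60 ± 0.25, adjusted p = 0.000864) and its target Hes1, a repressor of the secretory fate, at 223 and 163 against 80.6 and 104 (1.02 ± 0.21, adjusted p = 0.00449). Hes6 (1.23 ± 0.18), the feedback gene Nrarp (0.80 ± 0.23) and the sugar transferase Lfng, which tunes receptor-ligand pairing (11 and 7.80 against 0.831 and 3.48 CPM), were higher too. The ligand Dll4 was higher at few counts (2.74 and 4.26 against 1.25 and 1.35, adjusted p = 0.0488, not called by DESeq2), and Dll1 and Jag1 were not called. Numb, an inhibitor of Notch, was lower (21.4 and 17.0 against 32.2 and 31.0 CPM, -0.70 ± 0.20), as was Rfng (-0.94 ± 0.29), which lost its call with library-size scaling; DESeq2 called neither, nor Nrarp.

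The BMP list went the other way: 7 of 19 tested genes were lower and 2 higher, with a median of -0.33. Id1 and Id3, inhibitors of differentiation factors that BMP signalling induces, were at 94.8 and 130.2 against 282 and 363 CPM (-1.53 ± 0.14, adjusted p = 3.68e-05) and 28.2 and 37.6 against 67.9 and 105 (-1.38 ± 0.15, adjusted p = 8.02e-05). The feedback inhibitor Smad7 (40.8 and 33.3 against 82.0 and 73.3) and the ligand Bmp2 (5.75 and 3.19 against 38.4 and 21.1, -2.65 ± 0.33) were lower too. The receptors Bmpr1a, Bmpr2, Tgfbr1 and Tgfbr2 were not called, and Smad5, a signal transducer, was higher (32.6 and 26.2 against 11 and 14.5, 1.17 ± 0.23).

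Within the EGF receptor pathway ligands and transcription factors parted. The ligands Areg (29.9 and 48.6 against 124 and 275 CPM, -2.29 ± 0.20, adjusted p = 3.07e-05), Hbegf (74.5 and 94.0 against 182 and 213, -1.23 ± 0.14) and Tgfa (5.75 and 6.38 against 16.6 and 15.4, -1.38 ± 0.24) were lower in the stem cells, as were the phosphatase Dusp6 and, by TMM but not library-size scaling, Btc. Etv4 and Etv5, transcription factors that ERK signalling induces, were higher, at 11.8 and 11.7 against 1.66 and 4.06 (2.01 ± 0.41, adjusted p = 0.00402) and 7.12 and 9.58 against 1.66 and 2.71 (1.92 ± 0.40, adjusted p = 0.00495). Etv4 had 2 UMIs in the progenitors and 1 in the colonocytes and passed the count filter only through the stem sums. Its call was thus not independent of its being high there. The receptors Egfr, Erbb2 and Erbb3 were not called. In all 5 of 17 tested genes were lower and 2 higher, with a median of -0.36.

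Of 33 tested cell cycle genes 11 were higher (5 by DESeq2), 1 lower and 21 not called. The higher ones are known for roles in DNA replication and its upkeep: Mcm2 to Mcm7, subunits of the replicative helicase, Pcna, Gins2, Tyms, Hells and Uhrf1. Mcm6 was at 116 and 90.8 CPM against 34.7 and 54.5 (1.20 ± 0.23, adjusted p = 0.00280), Mcm3 at 82.2 and 74.8 against 28.7 and 51.3 (1.0 ± 0.23, adjusted p = 0.00758) and Mcm7 at 104 and 88.3 against 39.3 and 49.5 (1.10 ± 0.18, adjusted p = 0.00131). Pcna, at 182 and 159 against 73.3 and 128, was not called without the library block (adjusted p = 0.0675), and DESeq2 did not call Mcm2, Mcm5, Gins2, Tyms, Hells or Uhrf1. Other genes of DNA synthesis and its onset were not called: Rrm1, a subunit of the enzyme that makes deoxynucleotides, was at 92.9 and 117 against 55.5 and 96.1 CPM, its partner Rrm2 at 25.8 and 57.1 against 22.2 and 60.0, and cyclin E1 (Ccne1) at 15.6 and 14.2 against 8.72 and 20.1. Cyclin B1 (Ccnb1), which starts mitosis, was at 43.3 and 52.8 against 55.5 and 47.2 CPM, Cdk1 at 65.5 and 75.2 against 72.3 and 74.7, and Plk1 at 48.5 and 66.3 against 55.2 and 47.1. These 3, with Cdc20, Birc5, Aurka and Tpx2, had fold changes between -0.09 and 0.17 and were not called; among barcodes of 10000 to 40000 UMIs alone Cdc20 was lower (-1.08). The 1 lower gene was Cdkn1a, the cell cycle inhibitor p21, at 45.5 and 119 CPM against 247 and 523 (-2.27 ± 0.23, adjusted p = 5.93e-05). Its level was higher in library 2 than in library 1 in all 4 gates, and within each library the stem sum was the lowest.

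The dividing gate was cut with Mki67 and Top2a, and 77.1% and 80.7% of members met that cut, so the share of dividing cells bears on these counts; a fit of the dividing members alone is given further on. To show the promoter letters of the replication genes, windows of 300 bases (250 before to 50 after the annotated start, RefSeq, GRCm38.p6) were searched on both strands for the E2F site letters TTTCCCGC or TTTGGCGC. They occurred in 1.80% of 27025 genes with a window and in 6 of 26 cell cycle genes (23.1%). Among these were 5 of the 9 higher genes with a window (Mcm3, Mcm5, Mcm6, Mcm7 and Hells). For the Wnt target list the TCF site letters CTTTGAT were searched in the same way. They were in 2 of 14 list genes with a window (14.3%) and in none of the 6 higher ones, against 4.29% of all genes. The windows of Mcm6 (chr1:128359656-128359955, minus strand) and Mcm3 (chr1:20820263-20820562, minus strand) are printed 5′ to 3′, with the E2F matches in capitals. They are shown because both were among the called helicase genes. Neither pair of matches overlaps, and in Mcm3 both lie after the start.
Mcm6: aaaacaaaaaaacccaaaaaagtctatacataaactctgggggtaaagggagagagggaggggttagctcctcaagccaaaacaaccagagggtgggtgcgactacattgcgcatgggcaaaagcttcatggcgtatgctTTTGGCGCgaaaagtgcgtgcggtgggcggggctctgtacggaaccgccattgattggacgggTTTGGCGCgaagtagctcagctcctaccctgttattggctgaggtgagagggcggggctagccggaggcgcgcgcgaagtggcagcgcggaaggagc
Mcm3: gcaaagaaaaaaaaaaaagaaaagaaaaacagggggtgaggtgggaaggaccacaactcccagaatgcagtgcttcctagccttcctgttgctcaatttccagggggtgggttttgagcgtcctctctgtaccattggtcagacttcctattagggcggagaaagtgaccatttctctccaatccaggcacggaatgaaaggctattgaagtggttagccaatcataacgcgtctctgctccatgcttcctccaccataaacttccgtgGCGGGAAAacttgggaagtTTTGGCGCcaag

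Ribosome biogenesis genes, which supply growing cells with ribosomes, were higher as a group: 15 of 20 were called higher, none lower, and the median was 0.79. The nucleolar chaperone Npm1 was at 1507 and 1564 CPM against 647 and 854 (1.03 ± 0.21, adjusted p = 0.00447) and nucleolin (Ncl) at 1055 and 933 against 509.9 and 571 (0.88 ± 0.15, adjusted p = 0.00161). Gar1, a component of RNA pseudouridylation particles, was at 83.6 and 84.8 against 29.9 and 41.3 (1.24 ± 0.18, adjusted p = 0.000450), and Polr1b, a subunit of RNA polymerase I, at 19.2 and 15.2 against 5.19 and 5.99 (1.57 ± 0.33, adjusted p = 0.00466). The library-size median shift of all genes was far smaller than these differences, and 17 of the 20 were called higher with that scaling.

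**Figure D2:**
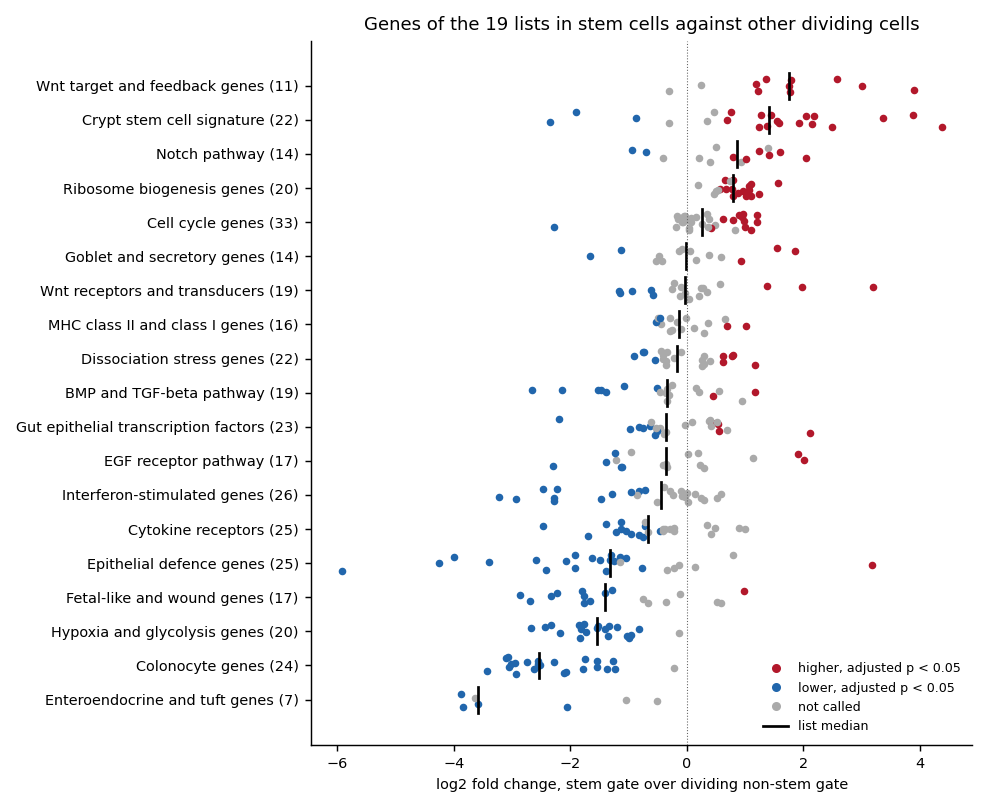
Log2 fold change of each tested list gene, stem gate over dividing non-stem gate (x axis), in 19 gene lists ordered by median (y axis; number tested in brackets); red and blue points are called higher and lower at adjusted p under 0.05, grey points are not called, and black bars are list medians. Wnt targets (median 1.76) and stem cell genes (1.41) lie to the right, hypoxia (-1.53) and colonocyte genes (-2.54) to the left.

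Genes of mature colonocytes were low in the stem cells. Of 24 tested, 23 were lower than in the dividing cells and 1 was not called; the median was -2.54. The carbonic anhydrase Car1 was at 102 and 167 CPM against 1095 and 1777 (-3.42 ± 0.19, adjusted p = 5.32e-06), the chloride-bicarbonate exchanger Slc26a3 at 57.3 and 20.6 against 325 and 335 (-3.06 ± 0.36) and guanylin (Guca2a) at 159 and 119 against 1221 and 1037 (-3.02 ± 0.21). Free RNA in the suspension bears on such low levels. In plain CPM Car1 was at 123 and 103 in the 136 members without the fibroblast-marker barcodes. It was at 109 and 179 in the leukocyte barcodes, which do not express it. These levels are per UMI, and those members were deeper (medians of 30687 and 36760 UMIs against 6313 and 5954). Similar CPM therefore does not mean similar free RNA per barcode, and its part in the members' Car1 was not tested. Keratin 20 was at 111 and 35.5 TMM CPM in the members against 578 and 702. Lypd8, a protein that holds bacteria off the epithelium, was at 1483 and 686 plain CPM against 582 and 514 in leukocytes. Few members carried this sum: per barcode the median was 6.86 and 6.18 UMIs per 10000, the upper quartile 9.95 and 8.26 and the highest 184 and 111. The dividing gate thus held far more colonocyte transcript than the members, up to 5695 and 5365 TMM CPM of Lypd8 against 1228 and 673.

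Secretory lineage genes were mixed. Of 14 tested goblet and secretory genes 3 were higher, 2 lower and 9 not called, with a median of -0.02 (0.11 with library-size scaling). Among the 3 were regulators of that lineage: Spdef, at 11.5 and 16.3 CPM against 3.95 and 5.51 (1.55 ± 0.30, adjusted p = 0.00322), and Foxa3, at 35.1 and 28.4 against 5.82 and 11.6 (1.86 ± 0.34, adjusted p = 0.00208). Goblet products were not called, such as Tff3 (20.8 and 64.9 against 52.8 and 64.7), Fcgbp and Zg16. Atoh1, the factor that opens the secretory fate, was at 3.29 and 2.48 against 0.831 and 2.90 and not called. Neurog3, the switch to enteroendocrine cells, had 15 UMIs in the members and none in the dividing cells. All 15 were in library 1 and in members with at least 8 Lgr5 and Smoc2 UMIs. Over both libraries pooled this is 12.7-fold higher against the floor of 3 counts, but library 2 held none in either gate. The hormone granule genes Chga (0.822 and 0.355 against 17.4 and 2.61 CPM) and Chgb (7.12 and 1.42 against 114 and 6.18, -3.59 ± 0.66) were lower. The Chgb difference was larger in library 1, and neither DESeq2 nor the fit without the library block called it (adjusted p = 0.0774 and 0.0944). Peptide YY (Pyy) was called lower at an adjusted p of 0.0499, but from library 2 alone: 5.75 and 1.42 CPM against 2.70 and 168, and a log2 fold change of 0.99 without that library.

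Of 23 tested transcription factors of the gut epithelium 4 were higher and 7 lower. Sox4 was at 291 and 232 CPM against 47.6 and 70.0 (2.12 ± 0.23, adjusted p = 9.61e-05) and Ehf at 442 and 357 against 274 and 266 (0.56 ± 0.13); Gata6 and, not by DESeq2, Foxa1 were also higher. DESeq2 called 5 of the 7 lower genes. Klf4, which halts division as colonocytes mature, was at 169 and 142 against 718 and 695 (-2.19 ± 0.17, adjusted p = 1.81e-05), and Hnf4a (-0.54 ± 0.13), Elf3 (-0.74 ± 0.14) and Esrra (-0.97 ± 0.15) were lower. The colonic identity factors Cdx1 and Cdx2 and the crypt factor Klf5 (696 and 579 against 668 and 536) were not called.

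Hypoxia and glycolysis genes were nearly all low in the stem cells: 19 of 20 were lower, none higher, and the median was -1.53. Hif1a, the oxygen-regulated transcription factor, was at 77.0 and 73.8 CPM against 290.1 and 254 (-1.85 ± 0.19, adjusted p = 7.69e-05). Its targets Bnip3, a mitophagy receptor, and Egln3, an oxygen-sensing prolyl hydroxylase, were at 5.21 and 7.80 against 35.1 and 47.2 (-2.66 ± 0.20, adjusted p = 1.81e-05) and 8.77 and 8.51 against 36.3 and 52.2 (-2.33 ± 0.32, adjusted p = 0.000379). The glucose transporter Slc2a1 (-1.83 ± 0.20), hexokinase 2 (Hk2, 97.3 and 104 against 315 and 393 CPM, -1.81 ± 0.15) and lactate dehydrogenase A (Ldha, 323 and 412 against 915 and 1214, -1.53 ± 0.17) were lower as well. Vegfa was the exception, at 33.7 and 18.4 against 25.1 and 30.0 and not called. All of these 6 called genes were highest in the colonocytes, where Bnip3 reached 196 and 256 CPM.

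The core letters of the hypoxia element, ACGTG on either strand, were in the promoter windows of 15 of 19 list genes (78.9%) and 14 of the 18 lower ones, against 21.8% of all genes with a window. The windows of Bnip3 (chr7:138909457-138909756, minus strand) and Egln3 (chr12:54203825-54204124, minus strand) are shown as 2 of the lower genes, matches in capitals; the 2 matches in Bnip3 overlap on opposite strands.
Bnip3: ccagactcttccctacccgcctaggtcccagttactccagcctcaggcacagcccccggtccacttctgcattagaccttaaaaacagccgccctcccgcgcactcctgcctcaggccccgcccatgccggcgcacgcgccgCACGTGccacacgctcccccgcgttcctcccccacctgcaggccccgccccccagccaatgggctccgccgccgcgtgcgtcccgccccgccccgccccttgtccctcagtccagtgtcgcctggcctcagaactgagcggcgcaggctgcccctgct
Egln3: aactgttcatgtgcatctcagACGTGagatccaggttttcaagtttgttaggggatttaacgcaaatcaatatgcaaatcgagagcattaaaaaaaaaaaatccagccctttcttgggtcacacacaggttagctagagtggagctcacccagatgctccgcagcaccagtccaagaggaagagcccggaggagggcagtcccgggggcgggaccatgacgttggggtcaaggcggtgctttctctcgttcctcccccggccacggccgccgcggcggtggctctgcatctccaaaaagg

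Wound-associated and fetal-like genes, which regenerating colon epithelium turns on, were mostly lower in the stem cells than in the dividing cells: 10 of 17 tested were lower, 1 higher and 6 not called, with a median of -1.40. Ly6a (Sca-1) was at 366 and 556 CPM against 1406 and 1676 (-1.77 ± 0.19, adjusted p = 7.74e-05), Anxa1 at 54.3 and 109 against 228 and 316 (-1.79 ± 0.17) and Anxa3 at 21.9 and 32.6 against 123 and 149 (-2.33 ± 0.17). The interleukin-1 receptor antagonist Il1rn was at 9.59 and 18.8 against 48.8 and 82.2 (-2.23 ± 0.21). Ccn1, a YAP target, was the 1 higher gene (35.6 and 20.6 against 10.8 and 17.4, 0.99 ± 0.31, adjusted p = 0.0340), though neither DESeq2 nor the fit without the block called it. Clu, a marker of revival stem cells in the mouse intestine, was at 0.274 and 7.09 against 11 and 1.74; without the 4 fibroblast-marker barcodes the members held 1 UMI of it against 71, a ratio of 0.0362 (0.000905 to 0.209).

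Epithelial defence genes were low too, with 18 of 25 tested lower and 6 not called. The antimicrobial lectins Reg3b and Reg3g were at 1117 and 1001 against 4277 and 3695 CPM (-1.91 ± 0.19, adjusted p = 6.14e-05) and 146 and 239.7 against 1018 and 617 (-2.07 ± 0.29). The chemokine Ccl20 was at 1.64 and 0 against 106 and 10.8 (-5.93 ± 0.55, adjusted p = 3.89e-05), gasdermin C2 (Gsdmc2) at 4.38 and 0.355 against 90.1 and 11.7 (-4.25 ± 0.42) and Il18 at 23.8 and 15.2 against 165 and 78.4 (-2.59 ± 0.21). Ccl20 and Gsdmc2 were far higher in library 1 than in library 2 of the dividing gate, and for both genes the 2 stem sums lay below the 2 dividing sums; the fit without the library block did not call Gsdmc2 (adjusted p = 0.0562). Pigr, the carrier of secretory antibodies, was at 1417 and 1060.0 against 1885 and 985, and the sensor Nlrp6 at 243 and 197 against 207 and 192; neither was called. Complement C3 was the only gene called higher (7.12 and 628 against 15.8 and 26.5), and without the fibroblast-marker barcodes, which carried it in library 2, it was lower (-0.80, adjusted p = 0.0221).

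Of 26 interferon-stimulated genes tested 11 were lower, none higher and 15 not called, with a median of -0.45; without the fibroblast-marker barcodes 14 were lower and the median was -0.73. Isg15, a ubiquitin-like antiviral protein, was at 14.2 and 18.8 CPM against 61.1 and 103 (-2.29 ± 0.19, adjusted p = 2.2e-05), Ifit1, which binds foreign RNA, at 5.75 and 9.22 against 19.7 and 53.0 (-2.22 ± 0.31, or -3.19 without the fibroblast-marker barcodes, adjusted p = 0.000448) and Irf7, an amplifier of type I interferon, at 7.12 and 13.5 against 44.4 and 68.1 (-2.47 ± 0.25, adjusted p = 5.93e-05). All 3 were highest in the colonocytes, at 724 and 861 CPM for Isg15. The interferon-gamma-induced GTPases Iigp1 (249 and 166 against 216 and 202), Igtp (46.0 and 44.7 against 52.1 and 43.8) and Irgm1 (66.0 and 40.1 against 61.9 and 51.3) were not called. The difference for Iigp1 was -0.03 ± 0.15. Other genes that interferon gamma induces were lower in some of the fits. Cxcl9 was at 16.7 and 36.2 against 44.4 and 54.2 CPM (-0.95 ± 0.30, adjusted p = 0.0372), but its difference had the opposite sign among barcodes of 10000 to 40000 UMIs alone. Gbp2, not called over all members, was lower without the fibroblast-marker barcodes (-1.84, adjusted p = 0.00173). Against the progenitors Iigp1 was higher in the stem cells (122 and 110.2 CPM there, 0.83 ± 0.16, adjusted p = 0.00151), as were the chemokines Cxcl10 (50.7 and 68.4 against 4.98 and 17.3, 2.52 ± 0.38) and Cxcl9 (16.7 and 36.2 against 2.21 and 15.1, 1.68 ± 0.48). In plain CPM the leukocyte barcodes held 285 and 865 of Cxcl10 and 300.2 and 771 of Cxcl9, above the members, and the part of free RNA in these 2 was not tested.

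The letters of the interferon-stimulated response element, GAAA and again GAAA after 2 further bases, searched on both strands, were in 13 of 20 list genes with a promoter window (65%) and 4 of 9 lower ones, against 3.99% of all genes. The windows of Isg15 (chr4:156200769-156201068, minus strand), with 3 overlapping matches, and Ifit1 (chr19:34640639-34640938, plus strand), with 2 on the opposite strand, are shown because both genes were lower in the stem cells, with the matches in capitals.
Isg15: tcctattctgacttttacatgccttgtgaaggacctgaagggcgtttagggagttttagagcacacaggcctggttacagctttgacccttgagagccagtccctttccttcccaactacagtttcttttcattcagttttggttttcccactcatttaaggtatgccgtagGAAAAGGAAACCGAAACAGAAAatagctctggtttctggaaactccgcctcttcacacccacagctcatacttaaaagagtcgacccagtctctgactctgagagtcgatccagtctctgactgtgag
Ifit1: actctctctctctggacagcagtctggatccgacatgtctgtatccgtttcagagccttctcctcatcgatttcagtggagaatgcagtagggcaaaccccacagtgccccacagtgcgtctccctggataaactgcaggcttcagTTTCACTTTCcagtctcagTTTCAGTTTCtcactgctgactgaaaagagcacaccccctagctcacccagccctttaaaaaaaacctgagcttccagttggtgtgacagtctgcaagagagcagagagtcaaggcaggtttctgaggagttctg

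**Figure D3:**
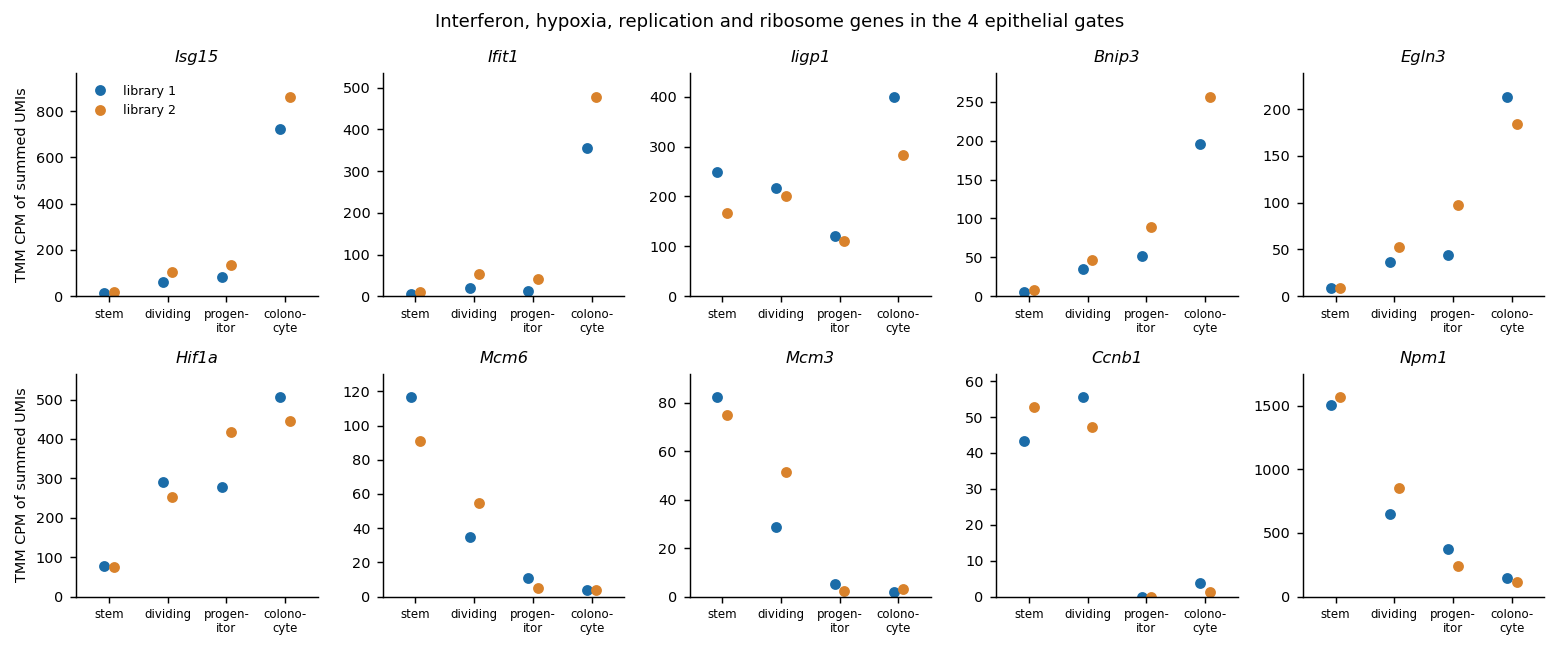
Levels of 10 genes of the interferon, hypoxia, replication and ribosome lists in TMM-scaled CPM of summed UMIs (y axis) for 4 gates (x axis), with 1 point per library. Isg15, Ifit1, Bnip3, Egln3 and Hif1a are lowest in the stem sums and highest in colonocytes, Mcm6, Mcm3 and Npm1 highest in the stem sums, and Ccnb1 overlaps between stem and dividing sums.

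Among genes of antigen presentation, 2 of 16 were higher and 2 lower; without the fibroblast-marker barcodes 1 was higher and 5 were lower, as in the dividing members alone. The class II gene H2-Eb1 was at 398 and 289 CPM against 156 and 164 (1.02 ± 0.31, adjusted p = 0.0293) and H2-Ab1 at 441 and 338 against 242 and 229.7 (0.69 ± 0.23, adjusted p = 0.0440). The second call was lost without the fibroblast-marker barcodes (adjusted p = 0.0578), and both were lost without the library block (adjusted p = 0.159 and 0.213). Leukocyte barcodes held 998 and 1454 plain CPM of H2-Eb1 against 481 and 339 in the members. The class I gene H2-K1 (900.4 and 941 against 1043 and 947) and B2m were not called.

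Cytokine receptors tended to be low: 12 of 25 were lower, none higher, and the median was -0.67. Both chains of the interferon-gamma receptor were lower, Ifngr1 at 76.4 and 82.6 CPM against 180.3 and 168 (-1.13 ± 0.15, adjusted p = 0.000288) and Ifngr2 at 50.4 and 54.6 against 97.4 and 88.3 (-0.82 ± 0.14). Il13ra1 (-1.12 ± 0.16), Il4ra (-1.03 ± 0.23), Il17rc (-1.21 ± 0.16) and Fas (-1.69 ± 0.26) followed. Il22ra1, the receptor of the repair cytokine interleukin-22, had 2 UMIs in the members and 26 in the dividing cells, a ratio of 0.195 (0.0224 to 0.779). Il6st, the shared chain of interleukin-6 family receptors, was at 15.3 and 46.1 against 15 and 14.6 and not called; without the fibroblast-marker barcodes its log2 fold change was 0.18.

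Stress genes of tissue dissociation did not separate the gates as a group: of 22, 5 were higher, 4 lower and 13 not called, with a median of -0.16. Fos (544 and 450.4 against 497 and 669.7 CPM) and Jun (729 and 492 against 468 and 499) were not called, whereas the chaperone Hsp90aa1 was higher (0.77 ± 0.13) and Junb lower (-0.90 ± 0.16).

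Beyond the lists, the 10 called genes with the largest fold change at 20 CPM or more were Mgp, Rarres2, Fut9, Rgcc, Hspb1, Axin2, Ephb3, Igfbp7, Smo and Aqp1. Mgp (1.37 and 259 against 0.831 and 3.28 CPM), Rarres2, Hspb1 and Igfbp7 owed their place to library 2: without the fibroblast-marker barcodes Rarres2 no longer had the counts for a test and the other 3 were not called (log2 fold changes of 0.24, 0.88 and -0.03). Fut9, a fucosyltransferase that makes the Lewis x sugar, was at 58.1 and 17.4 against 1.25 and 0.773 (5.01 ± 0.42, adjusted p = 3.5e-05). Rgcc, a regulator of the cell cycle, was at 49.3 and 64.5 against 2.08 and 4.06 (4.14 ± 0.28, adjusted p = 1.65e-05) and Smo, the signal transducer of the hedgehog pathway, at 41.1 and 30.5 against 6.02 and 5.89 (2.54 ± 0.33, adjusted p = 0.000266). The 10 genes at the other end were Ccl20, Gsdmc2, Sprr2a3, Cldn8, Gsdmc4, Myl7, Ptk6, Lrrc19, Hsd17b2 and Chgb. Sprr2a3, a small proline-rich protein with near-identical paralogs whose reads may be shared out unevenly, was at 25.2 and 20.9 against 417 and 407 (-4.16 ± 0.22). Hsd17b2, a steroid dehydrogenase, was at 5.21 and 4.97 against 62.5 and 64.6 (-3.62 ± 0.21) and Cldn8, a tight junction claudin of the distal gut, at 1.64 and 2.48 against 39.7 and 29.9 (-4.07 ± 0.45).

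The remaining comparisons share the stem sums with the first, so their values are set side by side and not counted as separate support. Against the non-dividing Cftr-positive progenitors 3141 genes (25.9%) were higher in the stem cells and 3111 (25.6%) lower (51.5% in either direction); scaled by library size alone the split was 66.0% higher in place of 50.2%. Of 11 tested Wnt targets 10 were higher (median 2.77), with Axin2 at 0.553 and 6.48 CPM in the progenitors (3.76 ± 0.51, adjusted p = 0.000111), Ephb3 at 1.66 and 0.720 (4.93 ± 0.55) and Cd44 at 4.98 and 6.48 (4.44 ± 0.31). Ascl2, without a UMI in the progenitors, was at least 22.1-fold higher. All 20 ribosome biogenesis genes were higher (median 2.37), as were 29 of 33 cell cycle genes, a contrast that the gate itself sets. Among the leading genes, each without a UMI in the progenitors, were Rarres2, at least 70.9-fold higher but carried by library 2 and the fibroblast-marker barcodes, the mitosis genes Ccnb1 (62.7-fold) and Ckap2 (55.2-fold), and Fut9 (53.3-fold). At the other end stood Alpi, the intestinal alkaline phosphatase (0.274 and 0.709 against 15.5 and 32.4 CPM, -5.54 ± 0.44, adjusted p = 2.65e-06). It rested on 1 to 3 UMIs in the members. Slc10a2, the bile acid transporter, was also there (1.64 and 3.90 against 71.9 and 153 CPM, -5.37 ± 0.35, or -6.06 without the fibroblast-marker barcodes).

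Against the colonocytes 4869 genes (40.1%) were higher in the stem cells and 4377 (36.0%) lower (76.1% together); here scaling matters most, since with library size alone the median of all genes moved from 0.12 to 0.95 and 73.0% of called genes were higher in place of 52.7%. Among the leading genes were Cdca7l, Cdo1, Bub1, Nme4, Cttnbp2, Prim1, Slc12a2, Foxq1 and Dtl. Cdo1, the cysteine dioxygenase, was at 85.5 and 57.5 against 1.19 and 0.343 CPM (6.43 ± 0.33, adjusted p = 2.59e-08). The 5 genes that led the other end had no UMI in the stem cells. H2-Q1, a class I gene whose family shares sequence and thus reads, was at least 63.1-fold lower, Erich4 at least 35.3-fold, Sprr2b at least 33.4-fold, Cyp2d12 at least 32.7-fold and Krtap3-1 at least 26.6-fold.

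When the 110 dividing members alone were set against the dividing cells, 1598 of 11930 genes (13.4%) were higher and 2216 (18.6%) lower (32.0% in all), and with library-size scaling 53.8% of called genes were higher in place of 41.9%. None of the 4 fibroblast-marker barcodes is among these 110. The list counts stayed near those above: 9 of 11 Wnt targets, 16 of 22 stem cell genes and 17 of 20 ribosome biogenesis genes were higher, and 23 of 24 colonocyte genes and 19 of 20 hypoxia genes lower. Mcm6 was at 123 and 96.4 CPM in the dividing members (1.28 ± 0.22, adjusted p = 0.00131) and Slc12a2 at 803 and 734 (1.93 ± 0.27, adjusted p = 0.000297). Of 26 interferon-stimulated genes 13 were lower and none higher. Among the 13 were Gbp2 at 15.5 and 12.3 CPM (-1.78 ± 0.33, adjusted p = 0.00200) and Ifit3 at 0.632 and 0 (-3.72 ± 0.69, adjusted p = 0.00194). Ifit3 rested on 2 UMIs in the dividing members against 85 in the dividing cells, a ratio of 0.0686 (0.00817 to 0.256). Ifitm3, a membrane protein that interferon also induces and that stem cells are known to express, was higher, at 1191 and 1154 against 163 and 337 CPM (2.36 ± 0.24, adjusted p = 3.79e-05). Cdo1 (89.8 and 60.0 against 17.2 and 11.7 CPM), Vav3 and Afap1l1 completed the leading genes with Fut9, Rgcc, Axin2, Ephb3, Smo and Aqp1.

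The members also varied among themselves. The 136 without fibroblast markers were binned by their Lgr5 and Smoc2 UMIs (2 to 3, 4 to 7, 8 or more; 25, 27 and 31 barcodes in library 1 and 22, 16 and 15 in library 2), the values behind the gate, so the following is description in plain CPM with no test. Axin2 was at 27.2 and 45.0 CPM in the lowest bin, 33.3 and 25.6 in the middle and 86.8 and 84.9 in the highest. Reg3b ran the other way, from 2794 and 2561 over 1289.8 and 844 to 620.2 and 237. Slc12a2 differed less between bins, at 985 and 819, 971 and 974 and 1066 and 1113, and Ly6a had no common order in the 2 libraries. Median depth was 26326, 34183 and 40534 UMIs in the bins of library 1 and 36947.5, 35374.5 and 39955 in those of library 2; its part in these values was not tested.

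The 78 members with an Lgr5 UMI (50 and 28) and the 58 with Smoc2 alone (33 and 25) differed alike, at close median depths (30418.5 and 35256 UMIs against 31621 and 37557). Axin2 was at 80.0 and 75.9 CPM with Lgr5 and 17.4 and 29.2 with Smoc2 alone, Cd44 at 182 and 242 against 91.8 and 92.4, and Ascl2 at 30.9 and 26.3 against 5.79 and 17.0. Reg3b was at 466 and 521 against 2672 and 2146, several times higher in the Smoc2-only members of both libraries. Mki67 was at 349 and 425 against 524 and 546. Just outside the rule, the 67 barcodes with 1 UMI of the pair (66 without 1 that held fibroblast markers) had Axin2 at 7.46 and 19 CPM, Slc12a2 at 372 and 659 and Car1 at 1726 and 1483, against 29.1 and 50.8, 1082 and 695 and 71.2 and 152 in the 25 members with 2 UMIs. Their 6 enteroendocrine markers summed to 4827 and 716 CPM, against 13.0 and 0 in those 25 members.

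**Figure D4:**
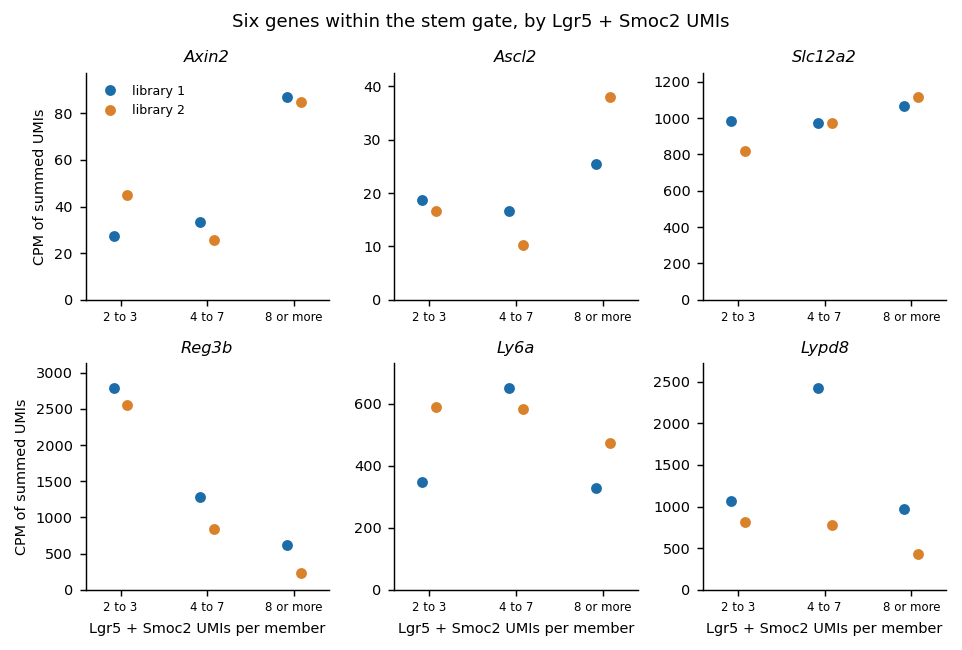
Levels of 6 genes in plain CPM of summed UMIs (y axis) in members with 2 to 3, 4 to 7 and 8 or more Lgr5 and Smoc2 UMIs (x axis), with 1 point per library and without the 4 fibroblast-marker barcodes. Axin2 is highest and Reg3b lowest in the top bin of both libraries; Slc12a2 stays between 819 and 1113 CPM.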

How the data were processed

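Droplet 3' single-cell RNA libraries from 2 repeats of 1 group were analysed. The deposited matrices hold raw UMI counts per gene and barcode; they were made with Cell Ranger, version 7.0.0 per the file headers and 8.0.0 per the submitters' processing notes, on mm10. No label or header names the annotation, and the labels give both V3 and v2 chemistry.

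Gates were cut on raw UMIs as the report states, counts summed per gate and library (deep barcodes weigh more), and filterByExpr left 12157 genes (11939 for the dividing members). edgeR 4.0.16 (R 4.3.3) fitted 8 sums with library as a block, since the gates of a library come from the same cell suspension, leaving 3 residual degrees of freedom; calls need an adjusted p under 0.05. The comparison gates are definitions made here. The non-dividing members, with under 20 barcodes per library, entered no fit. Alternatives were DESeq2 1.42.0, no block, no filter, other depths, thinning to 5000 UMIs, other gates, doublets removed and each library left out; leaving out fibroblast-marker barcodes and library-size scaling were chosen after seeing the data.

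The members, the gates and the 19 gene lists (441 symbols, all in the files) were chosen with earlier results of these data known. Outside the lists, genes were named where they were among the 10 highest or lowest fold changes of called genes with at least 20 CPM in the higher gate and the same direction in both libraries, leaving out gate genes, ribosomal, mitochondrial, immunoglobulin, globin, Xist, Y-linked, Gm and Rik genes. Gene coordinates are from GENCODE M21 (52081 of 55357 gene IDs matched). Ranges of ratios and shares are exact 95% intervals of counting error, and a floor of 3 counts stands for 0. Folds given as at least take the other gate's count as observed, so they are not lower confidence limits. A few genes that these rules and lists would name are not reported here.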

Additional observations from a re-analysis of the deposited data

How the results depend on the processing

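The 316 gene results called in the report's comparisons were recomputed under each alternative that gave a value. Of 3735 values 3486 counted as unchanged, 239 kept direction but lost the call, and 10 reversed. Unchanged means the same direction and call. Values with a library left out, and DESeq2 values without an adjusted p, had no call and were judged by direction alone. The cause was not tested where no construction is named. Against the dividing cells (3551 called, 1408 higher, 2143 lower), DESeq2 called 774 higher, the fit with no replicate block 792 higher (2384 in all), barcodes of 10000 to 40000 UMIs 1821 (576 higher, 1245 lower; 10378 genes tested) and thinning to 5000 UMIs 1267 (463 and 804; 7262 genes tested). Against progenitors, the middle depths gave 2050 higher and thinning 2672 (1255 and 1417). Against colonocytes, thinning gave 5212 (2687 and 2525) and library-size scaling 2581 lower. For dividing members, DESeq2 called 918 higher, the fit with no replicate block 988 higher, the middle depths 2272 (834 and 1438) and thinning 1411 (536 and 875). The libraries pair the gates, because each gate of a library comes from the same suspension; dropping that block moved no other count by over 1.5 times. With under 10% mitochondrial UMIs the stem share of library 1 was 6.67%.

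Together with 3 values of genes not called in the report (Gbp2 and Cdc20), the values that reversed were log2 fold changes against the dividing cells. C3 was -0.69 without doublets, -0.80 without fibroblast-marker barcodes and -1.10 without library 2 (4.55 without library 1). Gbp2 was -2.04 and -1.84, and Igfbp7 -0.63 and -0.026, without doublets and without fibroblast-marker barcodes. Pyy was 0.38 without doublets and 0.99 without library 2 (-6.53 without library 1). Thinning gave Fzd5 0.018 and Tnfrsf1a 0.15, and the middle depths gave Cxcl9 0.071 and Cdc20 -1.08. Leaving out a library leaves 1 sum per gate, so it gave fold changes but no calls.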

Other observations

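The 67 barcodes with a single Lgr5 or Smoc2 UMI are here set beside all members without fibroblast markers, not only those nearest the edge of the rule. Without the 1 with fibroblast markers, Chgb, a hormone granule protein, was at 3759 and 583 plain CPM in their sums, against 8.61 and 1.91 in the members. Neurog3 was at 1.24 and 23.3 CPM there, against 4.97 and 0 in the members; the values outside the rule rest on 1 and 33 UMIs. Of the 67, 38 met the cut for dividing cells. The level of Reg3b in them was 2238 and 3819 CPM and that of Ly6a 1248 and 1245, against 1349 and 1347 and 442 and 551 in the members. These are values of single sums per library with no test.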
